A study of Rattus norvegicus with 2 samples.

Results

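Serotonin receptors were examined as the 10 genes Htr1a, Htr1b, Htr1d, Htr2a, Htr2c, Htr3a, Htr4, Htr5b, Htr6 and Htr7. They were found by gene name among the non-control probes of a 1-colour rat expression array, and they make up 10 of the 17573 genes on the array that could be matched to a current symbol. They were represented by 14 of the 30367 non-control probes, each of 60 bases, with 2 probes each for Htr2a, Htr2c, Htr4 and Htr7 and 1 probe each for the other 6 genes. The tissue was labelled as the paraventricular nucleus of male Sprague Dawley rats aged 12 weeks. For the dexamethasone array, the mothers had been given the synthetic glucocorticoid dexamethasone at 200 µg/kg during the last trimester of pregnancy, and for the control array the mothers had been given vehicle. The sources used here do not state whether an array represents 1 animal or several pooled.

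Serotonin is released across the forebrain by neurons of the brainstem raphe nuclei and acts on a family of receptors that differ in the machinery they drive. Receptors of the Htr1 group couple mainly to inhibitory G proteins of the Gi/o class, and the Htr5 group is placed with them here. Those of the Htr2 group couple to Gq and phospholipase C, and Htr4, Htr6 and Htr7 to Gs and adenylyl cyclase. Htr3a forms a ligand-gated cation channel. In the paraventricular nucleus, serotonin input is known to act on corticotropin-releasing hormone, oxytocin and vasopressin neurons and on sympathetic outflow, and Htr1a, Htr2a, Htr2c and Htr7 are among the receptors studied there.

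With 1 array per group there was no replicate, no test of the treatment and no p-value. Differences are dexamethasone minus control in log2 signal after each array was scaled to its 75th percentile, and every value called a signal is a processed intensity that has not been scaled. The error given with a signal is the scanner software's own estimate for the spot, since every receptor probe was spotted once, and the error of a difference is computed from both estimates. It covers neither animals nor dissections. A gene at or past a 2-fold difference was counted as higher or lower, which is a rule of size. A probe that the scanner software did not call well above background on 1 array has only a bound, given as "at least" a fold. Since the arrays occupied separate places on 1 slide, an effect of place cannot be told apart from one of group. Precision is limited by the number of arrays. The arrays were similar in depth of detection, with 78.2% of probes well above background in the dexamethasone array and 79.5% in the control array.

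By this rule 3 of the 10 receptor genes (Htr1a, Htr2a and Htr1d) were higher in the dexamethasone array and 0 were lower. By the same rule 3.75% of the 14745 genes well above background on at least 1 array were higher and 2.62% were lower. Of the 8 receptor genes measured on both arrays, 2 were higher, against 3.37% of 14175 genes, and 0 were lower, against 2.38%. The other 6 lay within 2-fold. Below a mean signal of 32, 2 of 4 receptor genes were higher, where 3.97% of 1636 genes were higher and 5.2% lower. Above 512, 0 of 4 receptor genes were past 2-fold, where 2.53% of 7470 genes were higher and 0.991% lower. No receptor gene lay between, where the shares were 4.42% and 3.53%. The median difference of these 8 genes was 0.07, beside 0.0089 over all genes measured on both arrays, and the receptor median turned to -0.01 with normexp, a model-based background correction that keeps all signals positive. In bulk RNA, more or fewer cells of a type and more or less RNA per cell cannot be told apart. The receptor genes were chosen with earlier results of these arrays known, so these counts describe the list and do not set it apart. All 3 higher genes were dim, and none of them passed 2-fold when background was left in or handled with normexp. Both settings leave a common amount under each spot (an offset of 50 with normexp), which draws dim differences toward equality. Signals of 31.8 to 51.2 in the dexamethasone array could hardly reach 2-fold there. These settings therefore cannot decide whether the 3 differences hold.

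**Figure D1:**
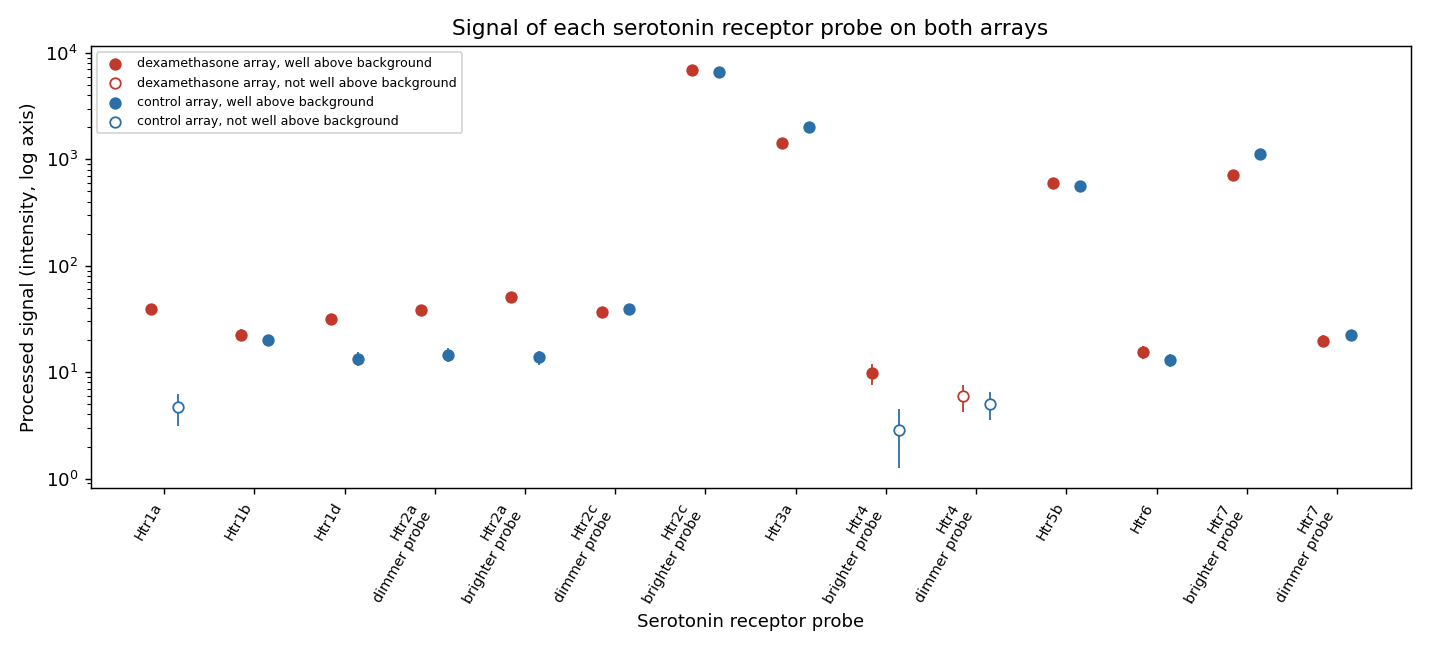
Processed signal (log axis) of each of the 14 serotonin receptor probes, with the dexamethasone array in red left of the control array in blue. Vertical bars are the scanner software's error estimates and open circles are spots not well above background. Htr1a, Htr1d and both Htr2a probes stand higher in the dexamethasone array, at 31.8 to 51.2, and Htr3a and the brighter Htr7 probe stand lower, at 1409.8 and 719.

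Among the Gi/o-coupled receptors, Htr1a, the main inhibitory autoreceptor of raphe neurons and a postsynaptic receptor of hippocampus and hypothalamus, differed most. Its probe (rn4 chromosome 2, 36435727 to 36435786) had a signal of 39.0 ± 4.27 in the dexamethasone array and 4.66 ± 1.58 in the control array. It was not well above background in the control array, so by processed signal Htr1a was higher by at least 6.32-fold in the dexamethasone array (bound of 2.66 in log2). This bound takes no account of the spot errors, and over the settings the Htr1a value ranged from 0.48 to 2.99. Of 220 genes that passed background in dexamethasone alone, 75 (34.1%) had a bound of at least 2-fold. The direction of such a bound is fixed by how these genes were picked, so nothing is read from that share about Htr1a. Before any subtraction, the Htr1a spot had a mean brightness of 97.7 over a local background of 66 in the dexamethasone array, against 64.8 over 67 in the control array. The control spot was therefore no brighter than the glass around it, and the unsubtracted difference of the scaled spots was 0.52.

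Htr1d, which like Htr1b acts as an inhibitory receptor on axon terminals, was 2.25-fold higher in dexamethasone (difference 1.17 ± 0.27). Its signal was 31.8 ± 3.61 in the dexamethasone array and 13.4 ± 2.02 in the control array (rn4 chromosome 5, 155189728 to 155189787). Of 954 genes whose mean signal lay no more than 0.5 log2 from that of Htr1d, 30 (3.14%) were at least as far above equality. Htr1b showed no such separation, with a signal of 22.5 ± 2.79 in the dexamethasone array and 19.9 ± 2.46 in the control array (rn4 chromosome 8, 86700094 to 86700153). Its difference of 0.10 ± 0.25 lay within its error and ranged from -0.05 to 0.18 over the settings tried.

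The probes of these 3 genes are shown because they read matching stretches of related receptors. By processed signal Htr1a and Htr1d were past 2-fold and Htr1b was not. With normexp, whose offset draws dim differences toward equality, all 3 were inside 2-fold, at 0.50 for Htr1a, 0.31 for Htr1d and -0.05 for Htr1b. Letters are 5′ to 3′ as in the deposited array files (plus strand for Htr1a and Htr1d, minus strand for Htr1b, by the rn4 positions given there), and capitals mark the 19 positions, of 51 that align without gaps in all 3 probes, at which the base is the same.
Htr1a: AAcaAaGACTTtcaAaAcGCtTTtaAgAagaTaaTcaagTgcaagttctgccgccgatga
Htr1b: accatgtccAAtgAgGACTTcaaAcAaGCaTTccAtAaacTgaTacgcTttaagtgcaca
Htr1d: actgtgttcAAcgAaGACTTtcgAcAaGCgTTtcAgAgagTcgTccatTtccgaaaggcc
Htr1a and Htr1d probes were identical at 29 of 51 aligned bases, Htr1b and Htr1d at 33 of 60, and Htr1a and Htr1b at 27 of 51. The pair most alike among all 18 receptor probes on the array was Htr1b with Htr1f, at 36 of 47 bases. How far a probe pairs with the transcript of a relative was not tested.

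Htr5b, the other member placed here with the Gi/o receptors, is known in rodents for strong expression in the habenula. It was bright and close to equal, with a signal of 603 ± 60.3 in the dexamethasone array and 556 ± 55.6 in the control array (rn4 chromosome 13, 33545417 to 33545476). The difference was 0.04 ± 0.20, with a range of -0.01 to 0.06 over the settings. Of 10 habenula markers, all measured, 10 were below 0 and 5 lower by 2-fold or more. Their median was -1.09, with a range of -1.28 to -0.77 over the settings. Their summed signal was 14293 in the dexamethasone array and 25450 in the control array. The part of habenular tissue in the Htr5b value was not tested.

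Among the Gq-coupled receptors, Htr2a, the receptor for serotonergic hallucinogens and a gene of cortical pyramidal neurons, was the most different receptor gene measured on both arrays. Its brighter probe (rn4 chromosome 15, 55532171 to 55532230) had a signal of 51.2 ± 5.44 in the dexamethasone array and 13.7 ± 2.10 in the control array, which is a 3.54-fold higher value (1.82 ± 0.27). The other probe (55533559 to 55533618) had 38.6 ± 4.27 in the dexamethasone array and 14.5 ± 2.14 in the control array, at 1.33 ± 0.27. Both probes were thus past 2-fold in the same direction by processed signal. The brighter probe was at 0.56 with normexp and 0.48 without subtraction, and the other at 0.18 and 0.29. Both of these settings draw dim differences toward equality. Htr2a ranked 151st from the highest among 14175 genes, and 18 of 1010 genes of similar signal (1.78%) were as far above equality.
The brighter probe is printed, all in lower case, because among the receptor genes it carries the largest difference measured on both arrays.
Htr2a: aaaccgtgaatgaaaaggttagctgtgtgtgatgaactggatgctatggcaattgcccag

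Htr2c, the receptor through which serotonin curbs feeding and the characteristic serotonin receptor of the choroid plexus, was the closest to equality. Its brighter probe (rn4 chromosome X, 31013361 to 31013420) had 6844 ± 684 in the dexamethasone array and 6556 ± 656 in the control array, with a difference of -0.01 ± 0.20. The dimmer probe (31015679 to 31015738) had 36.6 ± 3.99 in the dexamethasone array and 39.3 ± 4.17 in the control array, at -0.18 ± 0.22. Neither probe was apart from equality by more than its error. Of 12 choroid plexus markers 9 were above 0 and none was past 2-fold, with a median of 0.32, and Ttr, the transthyretin gene that defines the tissue, was at -0.07.

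**Figure D2:**
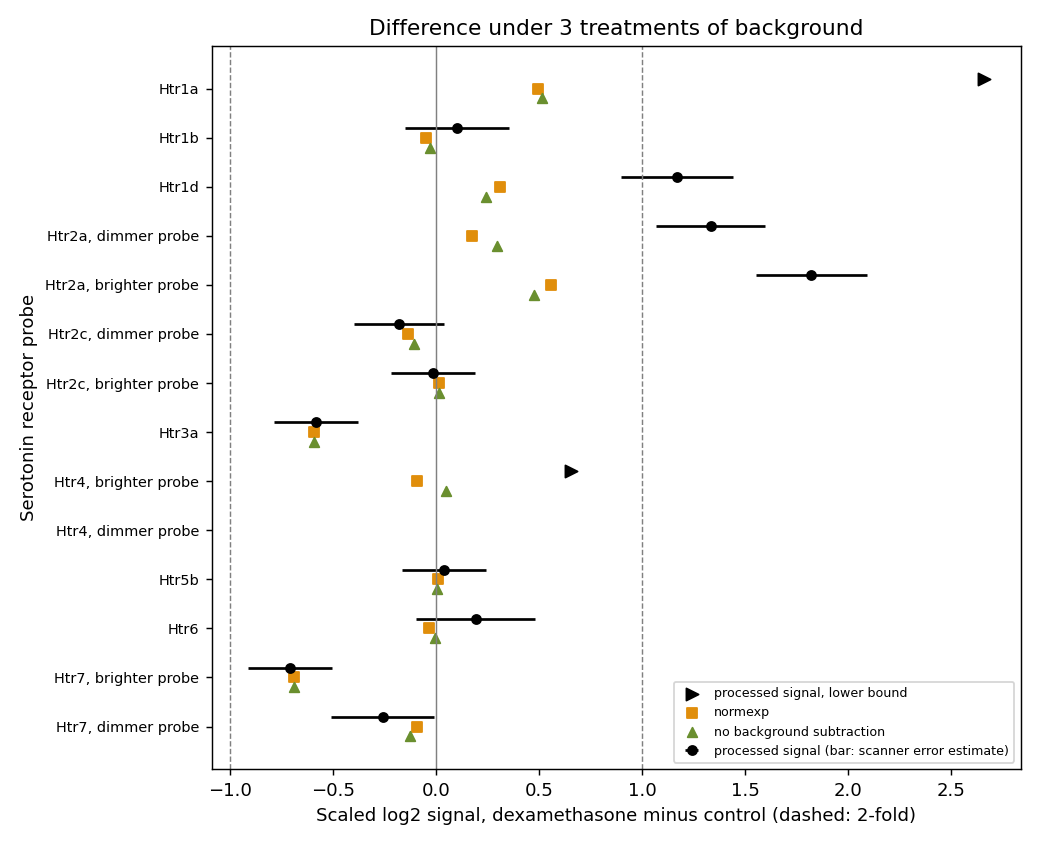
Scaled log2 signal, dexamethasone minus control, of the receptor probes under 3 treatments of background, with the dashed lines at 2-fold. Black circles with bars are processed signals with the scanner error estimate, black triangles are lower bounds for Htr1a and the brighter Htr4 probe, and the row of the dimmer Htr4 probe is empty because it was not well above background on either array. The dim Htr1a, Htr1d and Htr2a probes fall inside 2-fold with normexp or without subtraction, both of which draw dim differences toward equality. Over all settings Htr3a stays between -0.63 and -0.57.

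Among the Gs-coupled receptors, none was at or past 2-fold by value or bound. Htr7, which takes part in circadian timing and thalamic and hypothalamic signalling, was 1.63-fold lower in the dexamethasone array on its brighter probe (rn4 chromosome 1, 240135108 to 240135167). That probe had a signal of 719 ± 71.9 in the dexamethasone array and 1113 ± 111 in the control array, at -0.71 ± 0.20. The dimmer probe (240145408 to 240145467) had 19.8 ± 2.51 in the dexamethasone array and 22.4 ± 2.62 in the control array, at -0.26 ± 0.25. Both probes were below 0, the dimmer by about its error. Over all settings the gene's value ranged from -0.76 to -0.48.

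Htr6, a receptor of striatum, cortex and hippocampus, had 15.6 ± 2.16 in the dexamethasone array and 12.9 ± 1.86 in the control array, on a probe placed on unplaced sequence of chromosome 5. Its difference of 0.19 ± 0.29 lay within its error and crossed 0 over the settings (-0.03 to 0.28). Htr4, a receptor of basal ganglia and hippocampus, was at the edge of detection. Its brighter probe (rn4 chromosome 18, 58468820 to 58468879) had 9.73 ± 2.10 in the dexamethasone array and 2.88 ± 1.62 in the control array, where it was not well above background, which gives at least 1.58-fold. Its other probe (58509623 to 58509682), with 5.92 ± 1.70 in the dexamethasone array and 5.07 ± 1.49 in the control array, was not well above background on either. With normexp the brighter Htr4 probe was at -0.09, so no direction is given for Htr4.

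Htr3a, the subunit of the serotonin-gated cation channel and in cortex a gene of interneurons, was 1.50-fold lower in the dexamethasone array. Its signal was 1409.8 ± 141 in the dexamethasone array and 2003 ± 200 in the control array (rn4 chromosome 8, 52161175 to 52161234). The difference of -0.58 ± 0.20 held between -0.63 and -0.57 over the settings. Among 1540 genes of similar signal 82 (5.32%) were at least as far below equality, and for Htr7 the count was 75 of 1700 (4.41%). Spot noise within the arrays depended on signal: over 941 repeatedly spotted probes with a mean signal above 512, the between-array difference had a median spot SD of 0.035, and for 65 such probes below 32, where Htr1b, Htr1d, Htr2a and Htr6 lie, it was 0.27. This SD holds no spread between animals or dissections and does not bear on whether the receptor differences come from the treatment.

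**Figure D3:**
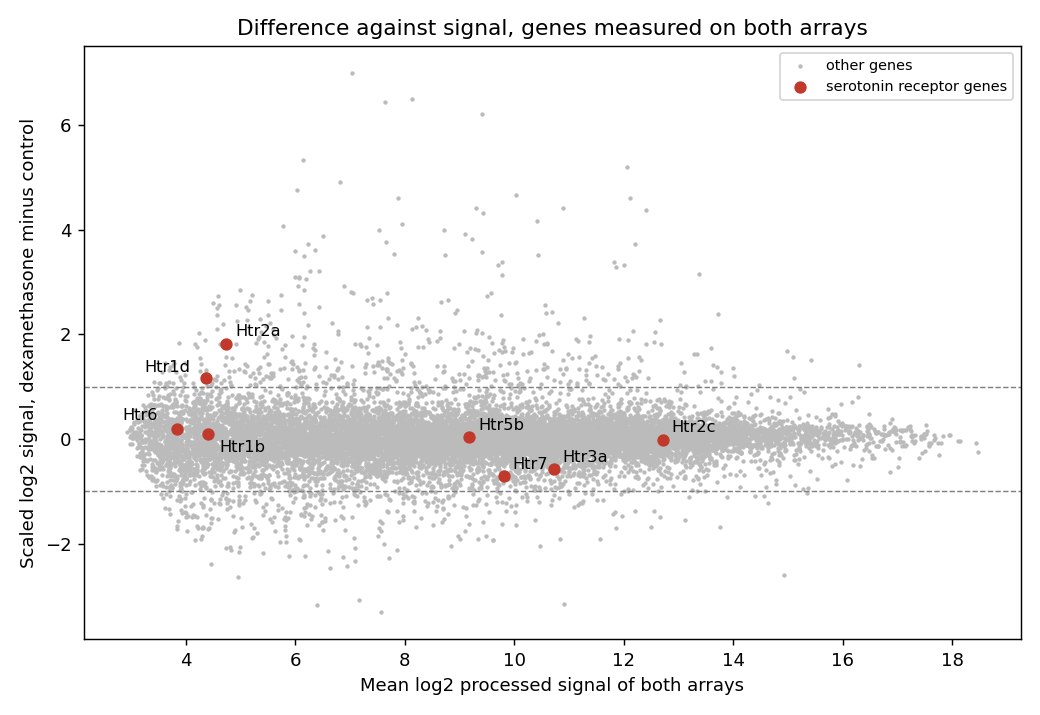
Difference (scaled log2 signal, dexamethasone minus control) against the mean log2 processed signal of both arrays, for 14175 genes measured on both, with dashed lines at 2-fold. The 8 measured receptor genes are in red: 4 have a mean signal below 32 and 4 above 512, Htr1d and Htr2a lie above the upper line, and Htr3a and Htr7 lie toward the lower edge of the genes of their signal.

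Of the 4 other serotonin receptor genes on the array, all were dim and none was past 2-fold. Htr1f, another Gi/o-coupled receptor, had a signal of 9.44 in the dexamethasone array and 7.23 in the control array (0.31 ± 0.41). Htr2b, a Gq-coupled receptor best known in heart valves, had 10.75 in the dexamethasone array and 16.5 in the control array (-0.69 ± 0.37). Htr5a had 18.5 in the dexamethasone array and 20.8 in the control array (-0.24 ± 0.26), and Htr3b, the partner subunit of Htr3a, was not well above background on either array.

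The counts of every gene list stand beside the shares over all 14175 genes measured on both arrays, 3.37% higher and 2.38% lower by 2-fold. The genes that make, carry and break down serotonin differed in both directions. Tph2, the rate-limiting enzyme of serotonin synthesis in brain, was 4.15-fold higher, with a signal of 86.4 in the dexamethasone array and 19.8 in the control array. That control signal is dim, like those of the higher receptor genes. Tph1, the corresponding enzyme outside the brain and in the pineal gland, was 5.34-fold lower, with 54.8 in the dexamethasone array and 278 in the control array. Pcbd1, a recycling enzyme of the pterin cofactor, was at -0.66. Of the 8 genes of synthesis 1 was at least 2-fold higher and 1 lower, with a median of 0.03 that ranged from -0.11 to 0.07 over the settings. Of 10 measured genes of transport and breakdown 2 were at least 2-fold higher and 2 lower, with a median of -0.08 and a range of -0.18 to 0.44. The higher pair were Slc22a2, an organic cation transporter (2.37), and Slc18a2, the vesicular monoamine transporter of neurons (1.28). Slc22a2 was dim, with a signal of 55.2 in the dexamethasone array and 10.1 in the control array. The lower pair were Slc18a1, the vesicular transporter of endocrine cells (-1.49), and Asmt, the last enzyme of melatonin synthesis (-1.09).

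Of the 10 genes listed for serotonin neurons, 7 were measured on both arrays, Tph2 among them, and 3 were not well above background on either. Slc6a4, the serotonin transporter, had 1.68 in the dexamethasone array and 3.05 in the control array, and Fev, the transcription factor that specifies these neurons, had 3.93 in the dexamethasone array and 1.51 in the control array. En2, a midbrain and hindbrain homeobox gene, was the third. The 7 measured markers in this list had a median of 1.28, which was 0.57 with normexp and 0.57 without background subtraction. Of them 6 were above 0 and 4 at least 2-fold higher. The 4 were En1, a midbrain and hindbrain homeobox gene (2.86), Tph2 (2.05), Gata3, a transcription factor (1.82), and Slc18a2, while Ddc, the decarboxylase shared with dopamine neurons, was at 0.58, Lmx1b at 0.17 and Gata2 at -0.46. In the control array the signals of En1 (25.8) and Gata3 (9.28) were dim. Part of this list, Slc18a2 and Ddc among it, is shared with dopamine neurons. En1, given above as a midbrain and hindbrain gene, is likewise not particular to serotonin neurons.

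Downstream of the receptors, the Gq list held the most genes past 2-fold. Of its 13 genes, all measured, 3 were at least 2-fold higher and 1 lower, with 11 above 0 and a median of 0.38. The 4 were Gna14, a Gq-class alpha subunit (2.17), Prkca, a protein kinase C (1.86), Plcb1, a phospholipase C abundant in cortex and hippocampus (1.43), and, lower, Plcb4, a phospholipase C of thalamus (-1.07). Of 11 genes of Gi/o proteins and the potassium channels they open, 1 was at least 2-fold higher, Kcnj6 (1.24), with Rgs4, a brake on G protein signalling, at -0.62 and the channel subunit Kcnj9 at -0.59 (median 0.11). Of 15 genes of Gs signalling 1 was at least 2-fold higher, the cyclase Adcy1 (1.20), with Adcy8 at -0.85 and Adcy7 at -0.75 (median -0.11). None of 13 partners and regulators of the receptors passed 2-fold, from which nothing is read beside those shares, and 10 were below 0 (median -0.23). Among these, the RNA-editing enzymes Adarb1, which edits Htr2c transcripts, and Adar were at -0.60 and -0.36, and Cc2d1a, a repressor of Htr1a transcription, was at -0.44.

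Markers of other brain regions also differed between the arrays, and by list their medians ran from -1.09 (habenula) to 4.41 (pallial excitatory neurons). Of 11 measured markers of pallial excitatory neurons, the neurons of cortex and hippocampus in which Htr1a and Htr2a are also expressed, 11 were above 0 and 10 past 2-fold, with a median of 4.41. Their summed signal was 75867 in the dexamethasone array and 3918 in the control array, and among them were Itpka, a kinase of dendritic spines (5.19), and Neurod2, a transcription factor of excitatory neurons (4.66). Tbr1, the remaining marker, passed background in dexamethasone alone. Of 9 striatal markers 8 were above 0 and 4 past 2-fold (median 0.68, summed signal 16498 in the dexamethasone array and 8293 in the control array), with Bcl11b at 4.32 and Penk, the enkephalin gene, at 1.34.

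Of 9 thalamic markers 8 were below 0 and 3 at least 2-fold lower, with a median of -0.91 and a summed signal of 69573 in the dexamethasone array and 127406 in the control array. Gbx2, a thalamic homeobox gene, was at -1.19, the kinase Prkcd at -1.03 and Slitrk6 at -1.02. The 3 largest habenula differences were those of Pou4f1, a transcription factor (-1.91), Slc5a7, the choline transporter (-1.91), and Chrna3, a nicotinic receptor subunit (-1.65). Interneuron markers of the kind that share Htr3a were mixed, with Lamp5 at 3.59, Cnr1, the cannabinoid receptor, at 1.52 and Vip at -1.06, and their median of 0.31 crossed 0 over the settings (-0.04 to 0.33). The part that any of these cell types has in the receptor values was not tested.

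Of the markers for the labelled nucleus, 8 of 9 were measured on both arrays, with a median of -0.04 that ranged from -0.61 to 0.16. Avp, the vasopressin gene, had 970 in the dexamethasone array and 3464 in the control array (-1.91), and Oxt, the oxytocin gene, had 587 in the dexamethasone array and 1455 in the control array (-1.38). Crh, the corticotropin-releasing hormone gene, had 636 in the dexamethasone array and 230.2 in the control array (1.39). Otp, a developmental factor of the nucleus, passed background in dexamethasone alone, and Sim1 was dim on both (12.0 in the dexamethasone array and 14.1 in the control array). Of 5 measured blood cell genes 5 were above 0 and 4 past 2-fold, with a median of 1.45 and a summed signal of 272330 in the dexamethasone array and 93478 in the control array, led by Hbb-b1 (1.57), Hbb (1.50) and Alas2 (1.45). Globin genes are near-identical copies, so their single values are uncertain. None of the glial markers passed 2-fold: the median was 0.21 for astrocytes (Slc1a2 0.76, Gfap 0.73, Slc1a3 0.45), 0.20 for oligodendrocytes (Mobp 0.69, Cnp 0.31) and 0.01 for microglia (Aif1 0.22, Cx3cr1 0.14, Tmem119 -0.13). The choroid plexus genes furthest from equality were Col8a1 (0.95), F5 (0.92) and Cldn2 (0.58).

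**Figure D4:**
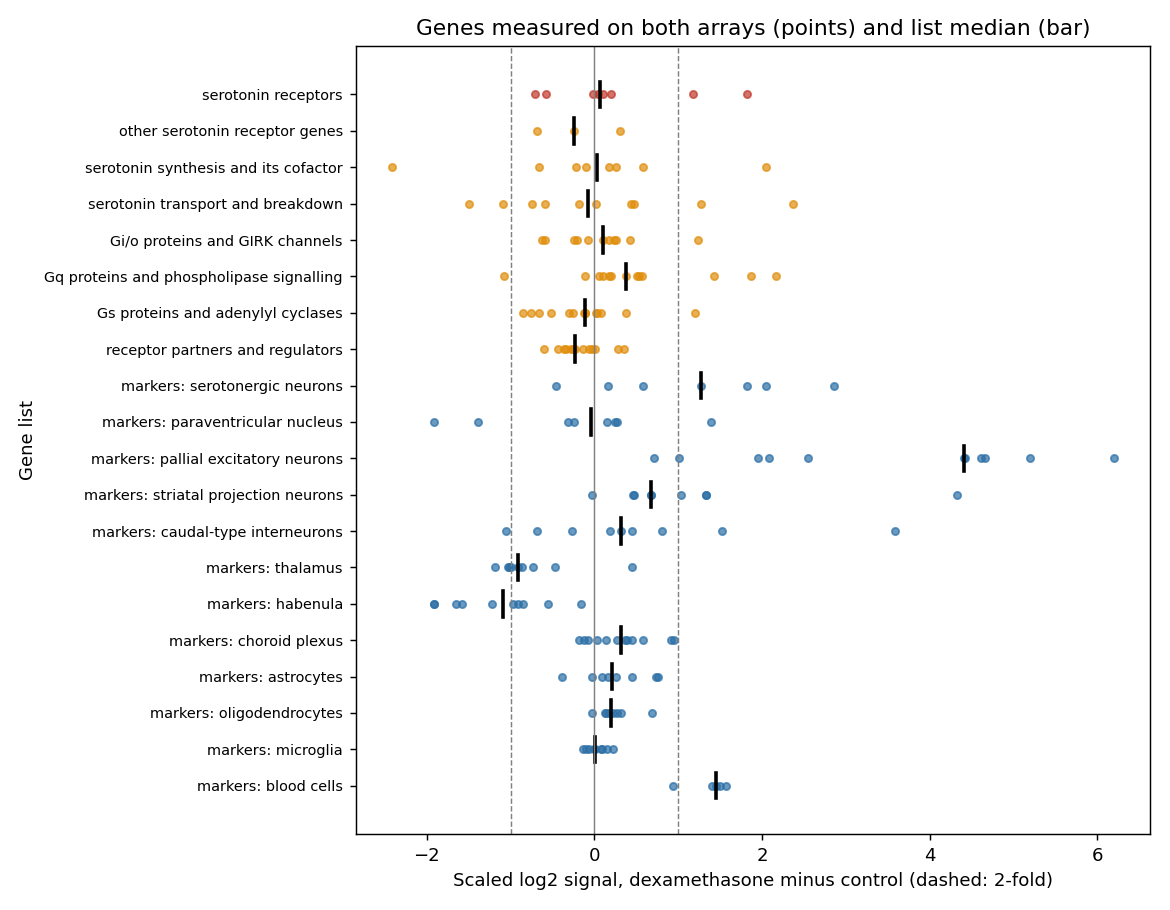
Scaled log2 signal, dexamethasone minus control, of the genes measured on both arrays in each list (points), with the list median as a black bar and dashed lines at 2-fold. The 8 receptor genes in red spread from -0.71 to 1.82 around a median of 0.07, while markers of pallial excitatory neurons have a median of 4.41 and habenula markers one of -1.09.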

How the data were processed

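Total RNA was labelled with Cy3 and hybridised to 2 rat arrays, 1 per group. The file headers give Feature Extraction 10.7.1.1 as the quantification software and rn4 for probe positions, whereas version 9.5.1.1 stands in the submitters' processing notes. The deposited intensity is the scanner software's background-subtracted and detrended signal, per the file headers, with its error estimate. The deposited value table holds a further normalized intensity (median 149.9 in both columns), whose method and centring the sources used here do not state. Its between-array differences correlated at 0.996 with those of the scanner values across probes, which gives its direction.

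Control spots and outlier-marked spots (249 dexamethasone, 267 control) were left out, and 0 spots were saturated. Log2 spots were averaged per probe, and each array was then centred on its 75th percentile of non-control probes (1477 as signal in the dexamethasone array and 1402 in the control array). A probe was well above background when over 0.5 of its spots were. A gene took its brightest probe measured on both arrays. For a bound, the array that measured the probe was compared with whichever was higher on the other array, the probe's own value or the lowest well-above-background signal (7.31 in the dexamethasone array, 5.86 in the control array). Names were matched to RefSeq (GRCr8, names alone): 18006 probes by accession, 2654 by symbol, 559 by older symbol, and 9148 unmatched probes stayed out of gene counts. The calculation was tested on simulated data.

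All receptor probes are described, as are the 3 genes furthest from equality in each of 7 pathway and 12 marker lists and every gene of the other-receptor and serotonin-neuron lists; further names complete small counts and were picked once values were known. Some genes that this rule names are not reported here. The members and lists were chosen with earlier results of these data known. The 12 alternatives covered scaling, background, filters, probe choice, spot summary and the value table. limma 3.58.1 under R 4.3.3 gave normexp (offset 50), quantile and cyclic loess values.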

Additional observations from a re-analysis of the deposited data

How the results depend on the processing

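With 1 array per group no replicate could be left out. No paired analysis was possible because each group held 1 array. The count of 3 receptor genes at least 2-fold higher was also found under 9 of the 12 alternatives, and was 0 with normexp, 0 without background subtraction and 0 for genes of above-median signal alone, a filter that left 3 receptor genes (Htr2c, Htr3a and Htr7). Apart from the value table, whose differences correlated at 0.996 with the scanner's, those 9 reuse the same background-subtracted signal. Their agreement therefore says little about dim genes. The count of lower genes was 0 under all 12. Htr1a, Htr1d and Htr2a kept their direction but were at 0.50, 0.31 and 0.56 with normexp, and at 0.48 (a bound), 0.24 and 0.48 without subtraction. These genes lie near the background, where the offset of 50 in normexp, or the background left in, draws differences toward equality. Both settings therefore cannot decide whether the differences hold, and the cause was not tested further. The receptor median of 0.07 was 0.0195 when scaled by the 75th percentile of measured probes, -0.0108 with normexp, 0.00046 without subtraction, 0.12 with no filter on dim probes and -0.58 for bright genes alone. Past 2-fold were 3.37% of all genes upward and 2.38% downward, against 2.004% and 0.917% with normexp, 1.98% and 0.938% without subtraction, 4.95% and 4.17% with no filter, and 2.51% and 0.959% for bright genes. Of 227 list medians under an alternative, 82 moved by more than the median spot SD of 0.041.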

Other observations

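Values of 2 enzymes that turn serotonin into melatonin, singled out after they were seen, are given with no test. Aanat, which acetylates serotonin, had a signal of 35.3 in the dexamethasone array and 50.5 in the control array (-0.59), within 2-fold. Asmt, which methylates the product, had 98.3 in the dexamethasone array and 198.5 in the control array (-1.09), past 2-fold. Tph1 and Slc18a1, which serve serotonin synthesis and storage in endocrine cells, were at -2.42 and -1.49, while Tph2 and Slc18a2, their counterparts in neurons, were at 2.05 and 1.28.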
